A study of Mus musculus with 6 samples.

Results

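*Nos2*, the dual oxidase *Duox2* with its maturation factor *Duoxa2*, the oxidase *Nox1* with its organizer *Noxo1*, the siderophore-binding protein *Lcn2* and the serum amyloid A genes *Saa1*, *Saa2* and *Saa3* were examined in adenomas of the mouse small intestine. They are 9 of the 48440 genes in the deposited tables, found by their gene symbol. The genes were chosen by their shared role and selected on the FPKM difference between the genotypes in these same libraries. Their differences between genotypes are therefore a description, given with no test. FPKM, the unit used throughout, is the number of sequenced fragments scaled for transcript length and library size.

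RNA was sequenced from 6 adenoma polyps of mice on a C57BL/6 background, older than 42 days, with 3 libraries in each group. The ApcMin, PCdel libraries QC3, QC8 and QC10 came from mice with the ApcMin allele, a *Defa4*-Cre knock-in and Rosa26 iDTA/WT, in which Cre removes a stop cassette and diphtheria toxin A kills Paneth cells. The ApcMin libraries QC4, QC5 and QC6 came from mice with the same ApcMin allele and, per the study's methods, Rosa26 iDTA/WT without Cre. Both groups thus carry the toxin cassette. Cre is driven by *Defa4*, a Paneth cell defensin gene, from an allele built in 129/svJ cells, so sequence near that gene may also differ between the groups. The labels name separate samples but not separate mice, so the spread between libraries may be partly technical.

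Nitric oxide synthase 2 makes nitric oxide from arginine when cells are stimulated by microbes or cytokines. Dual oxidases and *Nox1* sit in the apical or plasma membrane of gut epithelium and release hydrogen peroxide or superoxide toward the lumen, where these oxidants limit microbes at the surface. *Lcn2* withholds iron from bacteria by binding their siderophores, and serum amyloid A proteins are lipid-binding acute-phase proteins that gut epithelium makes after contact with bacteria. Several of these genes are known targets of inflammatory signalling through NF-kB, STAT3 or C/EBP factors.

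The libraries were inferred to hold between 5.407 and 5.876 gigabases of aligned sequence, and 11.4% to 14.3% of all FPKM belonged to the top 10 genes. The epithelial marker *Epcam* was abundant in every library, between 735.1 and 1001.5 FPKM. *Lyz1*, which encodes the lysozyme of Paneth cells, was between 950.3 and 1148.2 FPKM in the PCdel libraries and between 1671.5 and 2280.7 in the ApcMin libraries, so it was lower without being absent. With 3 libraries against 3, an exact permutation test of a single gene cannot give a two-sided p below 0.1. Of 14240 genes tested with limma, 0.014% were called at an adjusted p under 0.05. Among the same genes, 6.0% had all 3 PCdel libraries above all 3 ApcMin libraries and 1.54% had all 3 below. Since these are bulk samples, fewer cells of a type and less RNA per cell cannot be told apart in any result.

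*Nos2* and *Nox1* were the members whose groups did not overlap, 2 of 9 and both higher in PCdel, set against the 6.0% of all genes above. The choice of members used this contrast, so nothing is read from that share. The other 7 overlapped, and 8 of the 9 passed the filter of a mean FPKM of at least 1, *Saa2* being the exception. On the log2(FPKM + 1) scale, all 9 members had a higher mean in the PCdel group, and without library QC8 this held for 6 of 9.

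**Figure D1:**
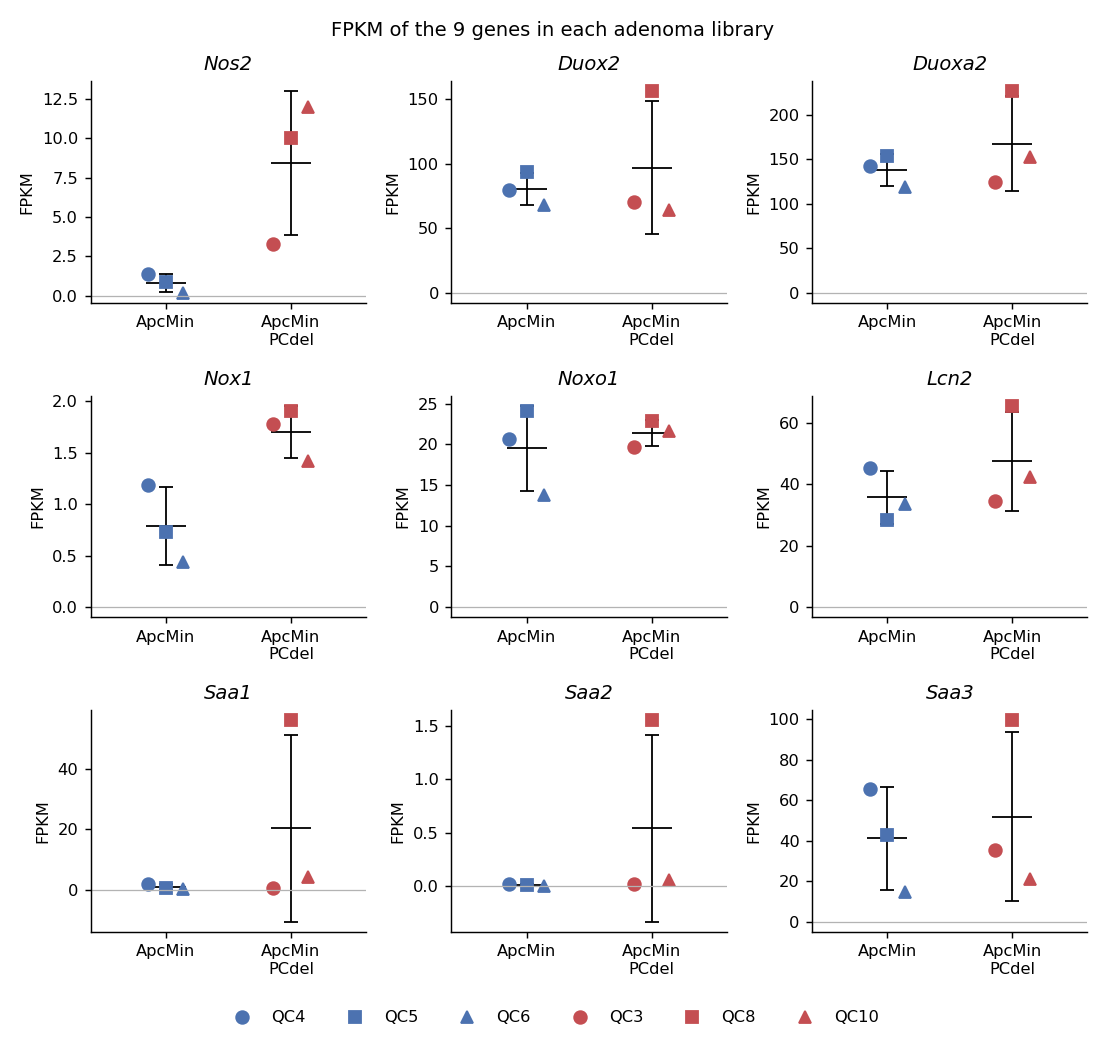
FPKM (vertical axes, from 0) of the 9 genes in each library, ApcMin in blue and ApcMin PCdel in red, with the group mean and SD as black bars and n = 3 per group. For *Nos2* and *Nox1* all 3 PCdel points lie above all 3 ApcMin points, and for 7 of the 9 genes the highest point is PCdel library QC8.

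*Nos2* (chromosome 11, 78920787 to 78960254, plus strand, GRCm38) was higher in the PCdel libraries. It was at 3.31, 9.99 and 12.0 FPKM in PCdel (QC3, QC8, QC10, the order kept throughout) and at 1.36, 0.902 and 0.203 in ApcMin (QC4, QC5, QC6). Every PCdel library was above every ApcMin library, but the PCdel libraries differed among themselves, with QC3 well below the other two. The group means were 8.44 ± 4.55 and 0.821 ± 0.582 FPKM (SD, n = 3 each), a ratio of 10.3. The log2 difference of FPKM + 1 was 2.28 with an SE of 0.57, and with QC3 as the sole PCdel library it was 1.30. *Nos2* remained a gene of middling abundance, its mean over the libraries at percentile 62.9 of the 27208 genes above 0 in at least 1 library.

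The other nitric oxide synthases did not show this pattern. *Nos1*, the neuronal enzyme, averaged 0.160 FPKM in PCdel and 0.195 in ApcMin and was too low to be tested. *Nos3*, the endothelial enzyme, averaged 0.939 FPKM in PCdel and 1.06 in ApcMin, with a log2 difference of -0.08.

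*Duox2* (chromosome 2, 122279247 to 122298165, minus strand), the peroxide-producing enzyme of the epithelial surface, was among the most abundant members. The gene ranked by its mean at percentile 96.3 of the 27208 genes above 0 in at least 1 library. It was at 70.0, 156.2 and 64.3 FPKM in PCdel and at 79.7, 93.4 and 68.2 in ApcMin. A single library, QC8, stood above all others, while the lowest library was QC10 of the same genotype. The means were 96.8 ± 51.5 and 80.5 ± 12.6 FPKM (SD, n = 3 each), with a log2 difference of 0.16 and an SE of 0.42. Without QC8 the log2 difference was -0.25.

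*Duoxa2* (chromosome 2, 122298900 to 122302885, plus strand) is needed to bring *Duox2* out of the endoplasmic reticulum to the membrane, and it starts 673 bases from the RefSeq start of *Duox2* on the opposite strand. It was at 123.9, 226.8 and 152.2 FPKM in PCdel and at 142.9, 153.3 and 118.3 in ApcMin. QC8 was again the highest, and the groups overlapped. The means were 167.6 ± 53.2 and 138.2 ± 17.9 FPKM (SD, n = 3 each), with a log2 difference of 0.24 and an SE of 0.28. Without QC8 the log2 difference was 0.0.

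The enzyme and its maturation factor kept a fairly even proportion. *Duoxa2* was above *Duox2* in all 6 libraries, and the ratio of their FPKM lay between 1.45 in QC8 and 2.37 in QC10. Both extremes of that ratio were PCdel libraries, and the ApcMin libraries lay between 1.64 and 1.79. The neighbouring pair behaved differently in level, since *Duox1* was at or below 0.0414 FPKM in every library. *Duoxa1*, which overlaps *Duoxa2* on the opposite strand (chromosome 2, 122302191 to 122313730), was at 2.41, 6.10 and 2.79 FPKM in PCdel and at 3.30, 4.01 and 2.55 in ApcMin. Of the *Duoxa2* transcript's 31-base words, 41.8% also occur in *Duoxa1* transcripts on either strand. The sources used here do not say whether strand was used, so reads of this overlap cannot be assigned to either gene.

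Of the DNA between the *Duox2* and *Duoxa2* starts, which the pair shares, the part next to *Duoxa2* is shown. Below are the 250 bases before the RefSeq start of *Duoxa2* (GRCm38.p6, chr2:122298650-122298899, plus strand). The capitals mark TATAAA, whose last base lies 25 bases before the start, and 12.4% of 32851 mouse promoters hold these letters on either strand in a window of this length. A match is a description of the letters only.
Duoxa2: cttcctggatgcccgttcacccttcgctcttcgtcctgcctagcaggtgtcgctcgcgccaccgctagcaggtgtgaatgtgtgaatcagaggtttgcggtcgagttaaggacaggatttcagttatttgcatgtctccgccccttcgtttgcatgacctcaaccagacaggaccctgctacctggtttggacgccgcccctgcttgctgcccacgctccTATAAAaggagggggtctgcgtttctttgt

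*Nox1* (chromosome X, 134086421 to 134221956, minus strand), the superoxide-producing oxidase best known from colon epithelium, was scarce but separated the groups. It was at 1.78, 1.91 and 1.42 FPKM in PCdel and at 1.19, 0.731 and 0.441 in ApcMin. All PCdel libraries were higher, and here QC3 lay with the others of its group, unlike in *Nos2*. The means were 1.70 ± 0.257 and 0.788 ± 0.379 FPKM (SD, n = 3 each), a ratio of 2.16, with a log2 difference of 0.61 and an SE of 0.19. With QC3 as the sole PCdel library the log2 difference was 0.66. Of the 31-base words of *Nox1* transcripts, 11.1% also occur in *Cstf2*, the gene that overlaps its end on the opposite strand (chromosome X, 134059187 to 134086819). With strand use not given, reads of this overlap cannot be assigned to either gene, so the low *Nox1* level is uncertain.

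*Nox1* was also the member, among the 8 with a RefSeq promoter window, whose 250 upstream bases held the NF-kB consensus. It is printed here for that reason (chrX:134111855-134112104, minus strand, written 5′ to 3′), with the match in capitals, its last base 82 bases before the start. Of all promoters, 7.25% hold the consensus in such a window. The window lies inside the annotated span of *Nox1*, which reaches 134221956, farther upstream on this strand than the RefSeq start at 134111854.
Nox1: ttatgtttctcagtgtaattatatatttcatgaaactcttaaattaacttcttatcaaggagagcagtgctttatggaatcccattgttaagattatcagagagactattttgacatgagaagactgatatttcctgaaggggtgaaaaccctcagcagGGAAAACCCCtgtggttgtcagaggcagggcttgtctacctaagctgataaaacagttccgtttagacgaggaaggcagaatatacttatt

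*Noxo1* (chromosome 17, 24696234 to 24700529, plus strand), which organizes the *Nox1* complex at the membrane, was at 19.7, 22.9 and 21.6 FPKM in PCdel and at 20.6, 24.1 and 13.8 in ApcMin. The groups overlapped, and the highest and the lowest library were both ApcMin. The means were 21.4 ± 1.57 and 19.5 ± 5.25 FPKM (SD, n = 3 each), with a log2 difference of 0.16 and an SE of 0.23. The organizer therefore did not follow the oxidase, and the ratio of *Noxo1* to *Nox1* FPKM ran from 11.1 to 15.3 in PCdel and from 17.3 to 33.0 in ApcMin. The groups did not overlap in this ratio, which carries the *Nox1* values that were used in choosing the genes. *Tbl3* overlaps *Noxo1* on the opposite strand (chromosome 17, 24697949 to 24707660), and 63.3% of the 31-base words of *Noxo1* transcripts also occur in *Tbl3*, so the *Noxo1* level is uncertain.

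The remaining partners of the *Nox1* complex overlapped between the groups. *Noxa1*, the activator subunit, was at 21.9, 18.9 and 17.8 FPKM in PCdel and at 20.0, 19.0 and 11.5 in ApcMin. *Cyba*, the membrane partner p22phox, was at 115.7, 115.8 and 135.2 FPKM in PCdel and at 121.9, 111.5 and 76.1 in ApcMin. For both, QC6 was the lowest library and QC4 lay above at least 1 PCdel library.

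*Lcn2* (chromosome 2, 32384633 to 32388252, minus strand) was at 34.4, 65.5 and 42.4 FPKM in PCdel and at 45.3, 28.3 and 33.5 in ApcMin. QC8 was the highest and QC5 the lowest, and the ApcMin library QC4 lay above 2 PCdel libraries. The means were 47.4 ± 16.2 and 35.7 ± 8.71 FPKM (SD, n = 3 each), with a log2 difference of 0.38 and an SE of 0.33. Without QC8 the log2 difference was 0.12. The *Lcn2* receptor gene *Slc22a17* averaged 0.640 FPKM in PCdel and 0.461 in ApcMin, too low to be tested.

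The serum amyloid A genes lie together on chromosome 7. *Saa1* had the widest ratio of highest to lowest library, 325.0, among the members above 0 in all 6. *Saa1* (46740497 to 46742980, minus strand) was at 0.630, 56.0 and 4.29 FPKM in PCdel and at 1.83, 0.426 and 0.172 in ApcMin. A single library, QC8, carried nearly all of the PCdel mean of 20.3 ± 30.9 FPKM, against 0.810 ± 0.894 in ApcMin (SD, n = 3 each). The log2 difference was 2.23 with an SE of 1.56, 0.81 without QC8 and -0.04 with QC3 as the sole PCdel library. Its spread within the PCdel group was thus larger than the difference between the group means.

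*Saa2* (46751790 to 46754313, plus strand) was at 0.0179, 1.55 and 0.0584 FPKM in PCdel and at 0.0226 and 0.0160 in ApcMin libraries QC4 and QC5, and it was listed at 0 in QC6. It was below the mean FPKM of 1 needed for the fit, so no fold is given. The log2 difference of FPKM + 1 was 0.47 (SE 0.43), and 0.04 without QC8. QC8 was the highest library, as in *Saa1*.

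*Saa3* (46711998 to 46715700, minus strand), a form made largely outside the liver, was at 35.4, 99.6 and 21.1 FPKM in PCdel and at 65.6, 43.0 and 14.9 in ApcMin. The groups overlapped, and QC8 was the highest. The means were 52.0 ± 41.8 and 41.2 ± 25.4 FPKM (SD, n = 3 each), with a log2 difference of 0.27 and an SE of 0.89, and it was -0.34 without QC8. *Saa4*, the constitutive form, was listed at 0 in 5 libraries and was at 0.0284 FPKM in QC4. *Fpr2*, a receptor for serum amyloid A on myeloid cells, averaged 0.359 FPKM in PCdel and 0.264 in ApcMin and was not tested.

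Within a library, *Saa3* exceeded *Saa1* by very unequal amounts. The ratio of their FPKM was 1.78 in QC8 and 4.91 in QC10, and it was 56.2 in QC3, 35.8 in QC4, 101.0 in QC5 and 86.5 in QC6. QC8 and QC10 were therefore the libraries in which *Saa1* came closest to *Saa3*.

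*Saa1* and *Saa2* are close copies, which limits how far they can be told apart. Of the 31-base words of *Saa1* transcripts, 46.0% also occur in *Saa2*, and of those of *Saa2* 44.4% occur in *Saa1*. Their 250-base promoter windows matched at 238 of 251 aligned columns, or 94.8%, while *Saa1* and *Saa3* matched at 48.5%. The upstream bases are printed to show this likeness in *Saa1* (chr7:46742981-46743230, minus strand) and *Saa2* (chr7:46751583-46751789, plus strand), beside the diverged *Saa3* (chr7:46715701-46715926, minus strand). *Saa2* and *Saa3* are cut where an annotated exon overlaps the window. Capitals mark the C/EBP pattern TTNNGCAA on either strand.
Saa1: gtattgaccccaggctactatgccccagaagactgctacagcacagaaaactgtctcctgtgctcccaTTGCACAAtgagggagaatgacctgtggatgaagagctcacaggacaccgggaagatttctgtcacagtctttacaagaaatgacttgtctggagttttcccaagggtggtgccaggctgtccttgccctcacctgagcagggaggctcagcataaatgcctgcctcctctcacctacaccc
Saa2: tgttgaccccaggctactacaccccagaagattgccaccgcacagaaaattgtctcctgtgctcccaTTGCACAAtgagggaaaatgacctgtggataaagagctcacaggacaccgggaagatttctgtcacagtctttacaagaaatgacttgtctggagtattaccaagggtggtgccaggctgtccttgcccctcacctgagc
Saa3: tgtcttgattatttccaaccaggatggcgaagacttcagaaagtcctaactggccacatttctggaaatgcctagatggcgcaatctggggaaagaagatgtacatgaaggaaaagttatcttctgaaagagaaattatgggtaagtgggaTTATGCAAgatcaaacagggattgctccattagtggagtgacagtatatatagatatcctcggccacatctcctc

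The C/EBP pattern was in the windows of 4 of 8 members, *Lcn2*, *Saa1*, *Saa2* and *Saa3*, with the nearest base 209, 175, 176 and 92 bases before the start, and in 9.56% of all promoters. The STAT pattern TTCNNNGAA was in 0 of 8, and in 7.02% of all promoters. These counts describe letters in a short window, were read on both strands with no overlap between patterns in the members, and say nothing of binding.

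Coverage of a gene, the mean read depth over all its exons, was also deposited and does not depend on which transcript the reads were assigned to. Divided by each library's own constant, it was put on the FPKM scale for a comparison chosen after seeing the data. *Saa1* then was at 0.622, 17.3 and 1.49 in PCdel and at 0.592, 0.420 and 0.0720 in ApcMin, so that the groups no longer overlapped, though QC3 exceeded QC4 by little. *Saa1* has a coding transcript of 609 bases and a retained-intron transcript of 2446 bases, and FPKM divided by scaled coverage was 1.01 in QC3 and QC5 but between 2.39 and 3.23 in the other 4 libraries. The overlap of *Saa1* between genotypes thus depended on the measure used.

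*Nos2* and *Nox1* kept their separation by coverage. *Nos2* was at 1.38, 5.03 and 6.14 in PCdel and at 0.710, 0.471 and 0.106 in ApcMin by scaled coverage, a log2 difference of 1.73. For *Nox1* the log2 difference of scaled coverage was 0.52. *Duoxa2* has a single annotated transcript and gave the same value by both measures in every library.

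**Figure D2:**
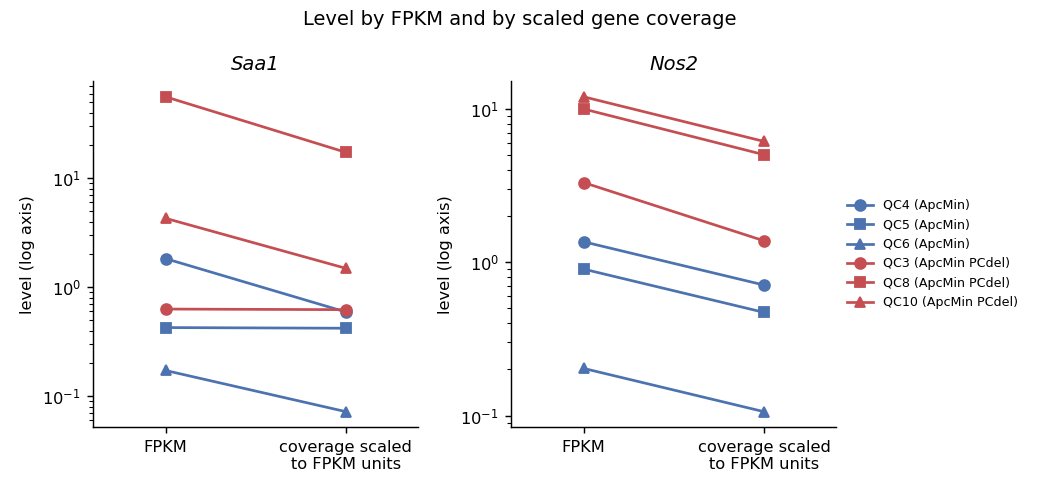
Level of *Saa1* and *Nos2* in each library by FPKM and by gene coverage scaled to FPKM units (log axis), with lines joining the values of a library, ApcMin in blue and ApcMin PCdel in red. For *Saa1* the lines of QC3 and QC5 are nearly level (ratio 1.01) while the other 4 fall, and for *Nos2* the groups stay apart by both measures.

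Ordered by mean FPKM over the libraries, the members ran *Duoxa2*, *Duox2*, *Saa3*, *Lcn2*, *Noxo1*, *Saa1*, *Nos2*, *Nox1* and *Saa2*. The step from *Duoxa2* to *Duox2*, from *Duox2* to *Saa3*, from *Lcn2* to *Noxo1* and from *Nox1* to *Saa2* held in all 6 libraries. *Noxo1* was above *Saa1* and *Nos2* above *Nox1* in 5 of 6. *Saa3* was above *Lcn2* in 4 of 6 and *Saa1* above *Nos2* in 2 of 6, so these neighbours were not separated beyond their spread. *Duox2* and *Duoxa2* were thus abundant in both genotypes, while *Nox1* was scarce in both and *Nos2* was low in ApcMin.

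Seen by library, 7 of the 9 members were highest in QC8, against 21.5% of all genes tested, and 7 of 9 were lowest in QC6, against 46.0%. The exceptions at the top were *Nos2*, highest in QC10, and *Noxo1*, highest in QC5. *Saa1* showed the widest deviations, from 3.97 above its mean in QC8 to 1.63 below it in QC6 on the log2 scale.

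**Figure D3:**
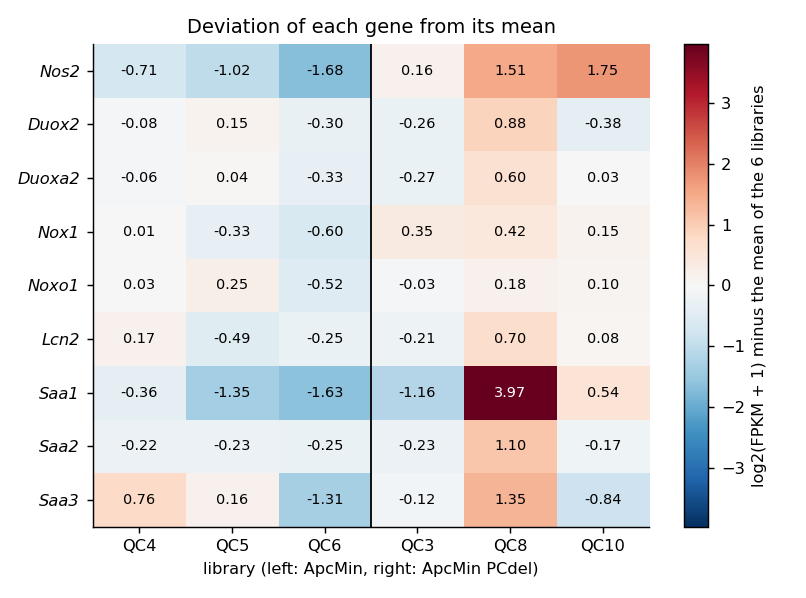
Deviation of log2(FPKM + 1) from the gene's mean over the 6 libraries, printed in each cell and coloured red above and blue below, with ApcMin libraries left of the line and ApcMin PCdel libraries right of it. QC8 is red for all 9 genes, whereas QC3 is above the mean for *Nos2* (0.16) and *Nox1* (0.35) alone.

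The PCdel libraries that were high in *Nos2* and *Saa1* also differed from the rest in markers of intestinal region. *Fabp6*, the ileal bile acid binding protein, was at 6.18, 1477.2 and 630.2 FPKM in PCdel and at 8.22, 23.6 and 2.39 in ApcMin. *Slc10a2*, the ileal bile acid transporter, was at 1.99, 36.3 and 13.0 FPKM in PCdel and between 0.905 and 6.41 in ApcMin. QC8 and QC10 were thus the libraries highest in both transcripts. They were the highest pair in 6 of 10 markers of distal small intestine, or 60.0%, against 7.69% of all genes tested. In the rest of the list they were not, *Guca2b* being highest in QC6 (1711.9 FPKM) and *Ccl25* lowest in QC8 (73.6 FPKM). The summed distal list ran from 1293.5 to 2845.0 FPKM in PCdel and from 1069.0 to 2538.0 in ApcMin, and no listed gene was at 0 in every library. *Gata4*, a marker of proximal small intestine, was at 38.9, 26.0 and 19.5 FPKM in PCdel and at 35.3, 22.6 and 40.5 in ApcMin. The summed proximal list set the ApcMin library QC6 apart, at 16131.7 FPKM against 5327.4 to 7242.2 in the other libraries. In QC3, *Fabp6* lay within the ApcMin range, *Nos2* was at 3.31 FPKM and *Saa1* at 0.630. The part of intestinal region in the levels of *Nos2* and *Saa1* was not tested.

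The summed macrophage and monocyte list ran from 156.9 to 179.2 FPKM in PCdel and from 126.0 to 140.2 in ApcMin, so the sums did not overlap. Mean FPKM was higher in PCdel for 12 of its 13 entries. Of the 11 tested, 5 were higher without overlap, against 6.0% of all genes. limma called 0 at an adjusted p under 0.05 and 4, all higher, at an unadjusted p under 0.05, against 2.7% of all genes. Its defining gene *Adgre1* was at 2.68, 3.35 and 2.91 FPKM in PCdel and at 2.26, 1.64 and 2.33 in ApcMin. Macrophages can also make *Nos2* and *Saa3*, and the part of these cells in the *Nos2* result was not tested. The summed neutrophil list overlapped, from 41.1 to 70.1 FPKM in PCdel and from 23.7 to 56.9 in ApcMin, with *Elane*, *Camp* and *Ngp* listed at 0 in every library. *Ly6g*, the defining neutrophil marker, was at 1.58, 7.50 and 3.89 FPKM in PCdel and at 2.27, 2.93 and 1.31 in ApcMin, highest in QC8. Of the other listed genes above 0, *Retnlg* was highest in QC8, *Ltf*, *Cxcr2* and *Mmp8* in QC3, and *S100a8*, *S100a9*, *Csf3r* and *Mpo* in QC4.

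The sums of the other marker lists overlapped between the groups. The Paneth cell list ran from 4231.2 to 7239.1 FPKM in PCdel and from 6398.0 to 13385.5 in ApcMin. The epithelial list ran from 6787.6 to 8657.7 and from 6261.4 to 8162.5, the T cell and innate lymphocyte list from 100.7 to 161.5 and from 63.1 to 214.8, and the stromal list from 427.6 to 626.4 and from 380.9 to 499.6. *Cd3e* was between 3.21 and 4.08 FPKM in PCdel and between 1.79 and 5.12 in ApcMin, and *Col1a1* between 24.2 and 47.6 and between 21.6 and 40.7. Mean FPKM was higher in PCdel for 12 of 12 stromal genes, of which 2 did not overlap. It was higher for 11 of 12 T cell and innate lymphocyte genes, of which 0 did not overlap. Among all genes tested, 6.0% were higher without overlap. limma called 0 of the stromal genes at an adjusted p under 0.05 and 2, all higher, at an unadjusted p under 0.05. Of all genes, 2.7% were higher at that unadjusted threshold. Of the Paneth cell genes tested, 3 of 11 were lower without overlap, against 1.54% of all genes. limma called 0 of them at an adjusted p under 0.05 and 6, all lower, at an unadjusted p under 0.05. At that unadjusted threshold 0.681% of all genes were lower. The part of stromal cells in the results was not tested. The proximal list ran from 5663.1 to 7242.2 and from 5327.4 to 16131.7, and the colon list from 111.0 to 192.6 and from 56.2 to 215.1, with *Car1* and *Hoxd10* listed at 0 in every library. Y-linked genes were high in QC3 and QC6 only, 1 library of each genotype.

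**Figure D4:**
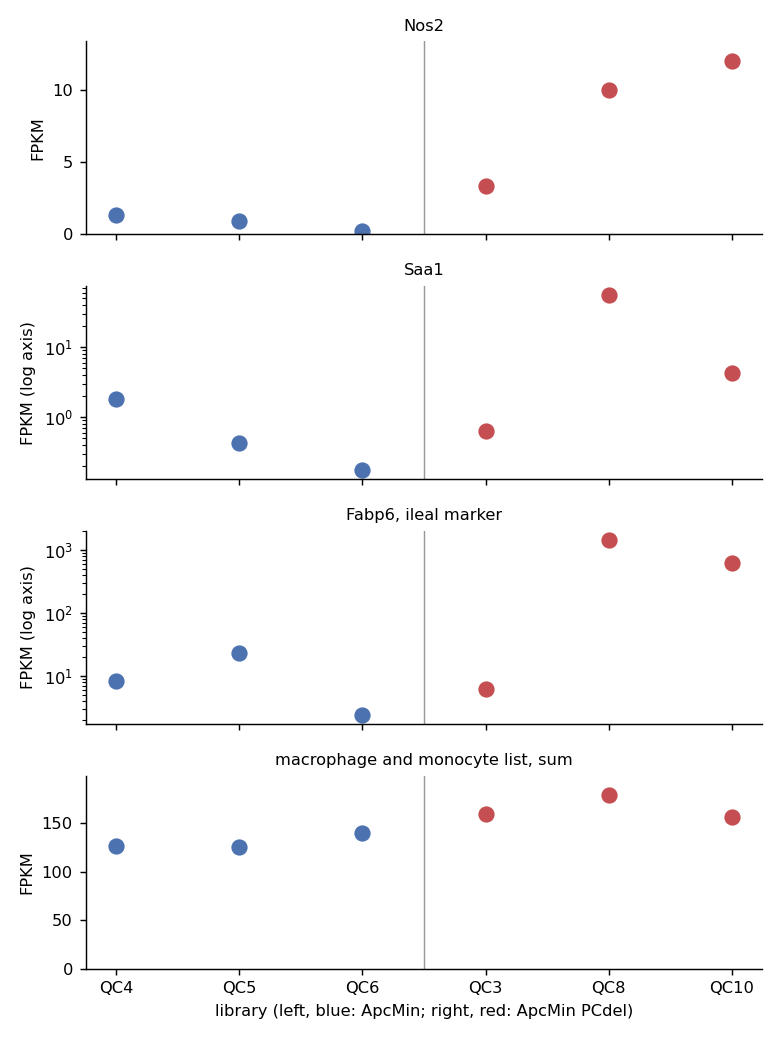
FPKM by library, ApcMin left in blue and ApcMin PCdel right in red, of *Nos2*, *Saa1* (log axis), the ileal marker *Fabp6* (log axis) and the summed macrophage and monocyte list. QC8 and QC10 are high in *Nos2*, *Saa1* and *Fabp6*, while QC3 is high in the macrophage sum (159.4) but not in *Fabp6* (6.18).

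Genes of the same pathways that are not members were taken from 9 lists of 198 names, of which 196 were found and 151 passed the filter on low values. limma called 0 of the 151 at an adjusted p under 0.05, the lowest adjusted p being 1.0, and at an unadjusted p under 0.05 it found 19 higher and 1 lower in PCdel, 20 in all, against 10 without QC3 and 13 without QC8. Over all genes tested these shares were 2.7% higher and 0.681% lower. The groups did not overlap for 21 genes higher and 3 lower, where all genes gave 6.0% and 1.54%. The median log2 difference over all genes tested was 0.04. The share of all genes with a higher mean in PCdel was not counted, so counts of higher means here and above have no such baseline. The unadjusted results are given below as values that did not pass correction, and the lists were written with earlier results of these data known.

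Partners of the NADPH oxidases had higher means of log2(FPKM + 1) in PCdel for 10 of 10 genes tested, with a median log2 difference of 0.16 against 0.04 over all genes. *Cybb*, the phagocyte oxidase, was at 4.88, 4.30 and 3.76 FPKM in PCdel and at 3.04, 2.83 and 3.37 in ApcMin, a log2 difference of 0.38 (SE 0.12, limma unadjusted p = 0.0171, adjusted p = 1.0). Of the nitric oxide and arginine list, 0 of 21 genes reached an unadjusted p under 0.05, and the median was 0.01. Its extremes were *Ddah1*, which breaks down inhibitors of nitric oxide synthase, at 0.48 (SE 0.54), and the arginase *Arg2* at -0.35 (SE 0.48). The smallest value among the oxidase partners was 0.03 for the GTPase *Rac1*. The arginine pathway around *Nos2* thus gave no gene past even the unadjusted threshold.

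Among 28 genes that remove peroxide or superoxide the median was -0.02. *Gpx3*, the extracellular glutathione peroxidase, was higher in PCdel by 0.34 (SE 0.10, limma unadjusted p = 0.0154, adjusted p = 1.0), and *Gpx1*, the cytosolic form, was lower with a log2 difference of -0.84 (SE 0.34, limma unadjusted p = 0.0451, adjusted p = 1.0). *Sod3*, the extracellular superoxide dismutase, had the highest log2 difference of the list, 0.41.

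Other acute-phase and iron-withholding genes had a median log2 difference of 0.50, with 11 of 12 means of log2(FPKM + 1) higher in PCdel. Complement *C3* was at 20.8, 29.5 and 11.4 FPKM in PCdel and at 9.58, 9.12 and 9.23 in ApcMin, a log2 difference of 0.97 (SE 0.31, limma unadjusted p = 0.0169, adjusted p = 1.0). Unlike *Saa1*, *C3* was near-constant in the ApcMin group. The protease inhibitor *Serpina3g*, the copper protein *Cp* and the iron hormone gene *Hamp* had log2 differences of 0.53, 0.54 and 0.51, each with an unadjusted limma p under 0.05 and an adjusted p of 1.0. Complement factor *Cfb* had the lowest value, -0.10. Of this list, 7 of 12 genes were highest in QC8, as most members were.

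Of the cytokines known to induce the members, 5 of the 16 found were abundant enough to test, with a median of 0.46. *Tnf* was at 2.74, 1.83 and 1.38 FPKM in PCdel and at 1.15, 1.17 and 1.07 in ApcMin, a log2 difference of 0.46 (SE 0.18, limma unadjusted p = 0.0363, adjusted p = 1.0). *Tnf* was highest in QC3, and its groups did not overlap. The part of *Tnf* in the *Nos2* level was not tested. *Il1a* had a log2 difference of 0.53 (limma unadjusted p = 0.0205, adjusted p = 1.0), *Il1b* 0.64 with overlapping groups and *Il18* -0.37. *Il22*, a main inducer of epithelial defence, was listed at 0 in every library, and *Il17a*, *Il6* and *Ifng* were below the filter. *Il6* was at 2.74 FPKM in QC8 and at or below 0.648 in every other library, so it too was highest in QC8.

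Receptors gave few differences. *Tlr2*, which recognises bacterial lipoproteins and serum amyloid A, had a log2 difference of 0.49 (SE 0.17, limma unadjusted p = 0.0250, adjusted p = 1.0) in a list of 5 tested genes with a median of -0.11, whose lowest value was *Cd36* at -0.25. Among 14 cytokine receptors the median was 0.05, with *Il1r1* at 0.41 (limma unadjusted p = 0.0416, adjusted p = 1.0) and the shared subunit *Il6st* at -0.20.

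Regulators of the NF-kB, STAT and C/EBP pathways had higher means of log2(FPKM + 1) in PCdel for 25 of 28 genes, with a median of 0.15. *Nfkbiz*, a nuclear cofactor of NF-kB needed for secondary response genes, was at 12.5, 11.0 and 10.2 FPKM in PCdel and at 8.72, 4.68 and 6.89 in ApcMin, a log2 difference of 0.69 (SE 0.20, limma unadjusted p = 0.0125, adjusted p = 1.0). *Nfkbia* and *Cebpd* had log2 differences of 0.35 and 0.27, each with an unadjusted limma p under 0.05 and an adjusted p of 1.0. The NF-kB inhibitor *Tnfaip3* had the lowest value, -0.45 (SE 0.33). *Nfkbiz*, *Nfkbia* and *Cebpd* did not overlap between the groups, and 13 of the 28 were highest in QC8.

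Other inducible defence genes of the epithelium had a median log2 difference of 0.27 over 28 genes. The neutrophil-attracting chemokine *Cxcl1* was at 3.87, 9.46 and 2.58 FPKM in PCdel and at 1.61, 1.63 and 1.21 in ApcMin, a log2 difference of 1.20 (SE 0.37, limma unadjusted p = 0.0159, adjusted p = 1.0). *Zbp1*, a sensor of nucleic acids, and *Gbp2*, an interferon-induced GTPase, had log2 differences of 0.50 and 0.47 with unadjusted limma p-values of 0.0052 and 0.00578, both 1.0 after adjustment. *Ccl28* and *Casp4* followed at 0.53 and 0.58, and *S100g* had the lowest value, -0.77 (SE 0.52).

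**Figure D5:**
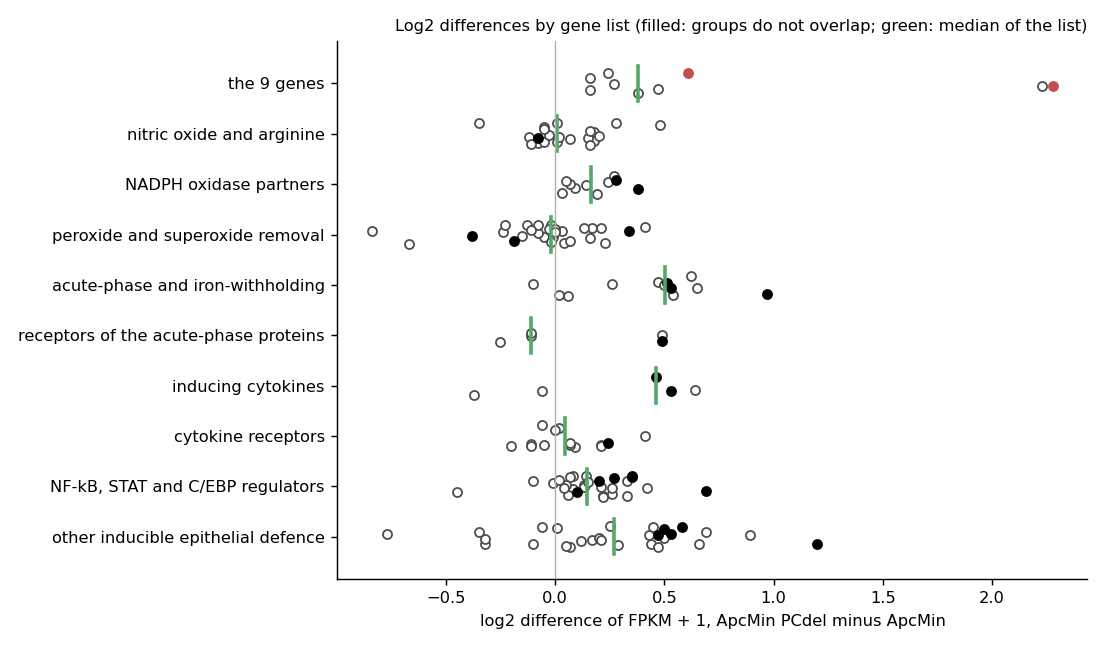
Log2 difference of FPKM + 1, ApcMin PCdel minus ApcMin (horizontal axis), of the 9 members and of the genes tested in each pathway list, 1 point per gene, filled where the groups do not overlap, with the list's median as a green line. *Nos2* (2.28) and *Saa1* (2.23) lie farther right than every gene of the lists, whose highest value is *Cxcl1* (1.20). The members were selected on this difference, so nothing is read from their position. *Saa1* was at 0.81 without QC8 and at -0.04 with QC3 as the sole PCdel library.

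The genes whose level across the 6 libraries was most like a member's are given as a description, the points sharing genotype, region and library. For *Nos2* the 5 closest were *Mospd2*, *Chm*, *Herc3*, *Gm21811* and *Rab10*, with Pearson's r of 0.993 to 0.976. *Mospd2*, a membrane contact protein, went from 6.98 FPKM in QC6 to 10.5 in QC10 and ordered the libraries exactly as *Nos2* did. Of 14232 genes, 161 or 1.13% reached an r of 0.9 with *Nos2*.

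For *Nox1* the closest were *Bcl2a1a*, *Scara3*, *Phf20*, *Tgm2* and *Fbxo38*, with r of 0.992 to 0.983. *Scara3*, a scavenger receptor induced by oxidative stress, was at 13.5, 14.5 and 12.5 FPKM in PCdel and at 9.64, 6.65 and 4.80 in ApcMin. For *Nox1*, 301 genes or 2.11% had an r of 0.9 or above.

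For *Duox2* the closest were *Midn*, *Sh2d3c*, *Atxn2l*, *Fam219a* and *Peg13*, with r of 0.995 to 0.982 and 152 genes or 1.07% at 0.9 or above. For *Lcn2* they were *Cog5*, *Serpina3n*, *Elf1*, *Asxl2* and *Klhdc4*, with r of 0.991 to 0.963 and 68 genes or 0.478% at 0.9 or above. *Serpina3n*, an acute-phase protease inhibitor, was at 46.6, 123.2 and 58.3 FPKM in PCdel and at 61.7, 29.3 and 50.1 in ApcMin, with QC8 highest and QC5 lowest as in *Lcn2*.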

How the data were processed

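RNA from small intestinal adenomas was sequenced in 6 libraries, 3 ApcMin, PCdel and 3 ApcMin, grouped by their titles. Per the methods, libraries were made with the TruSeq RNA kit, run on a HiSeq2500 and processed in CLC Genomics Workbench and MatLab, and the settings are not given in the sources used here. The authors deposited FPKM per gene, scaled for length and library size. The deposited tables also hold TPM, scaled to a fixed sum per library, and gene coverage, a signal the authors left unscaled. Gene positions match GRCm38, and the program and annotation are not given in the sources used here. Depth was inferred at 5.407 to 5.876 gigabases of aligned sequence. It was taken as each library's largest ratio of coverage to FPKM, low entries left out. Read numbers are unknown, so counting intervals and floors were not derived.

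Entries of a gene were summed. The 14240 genes whose FPKM averaged 1 or more were fitted with limma 3.58.1 in R 4.3.3 on log2(FPKM + 1) with a variance trend and Benjamini-Hochberg adjustment at 0.05. Fold changes on this scale understate changes of low genes. The script was tested on simulated data. The members and lists were chosen with earlier results of these data known, so members have no p-value. Named genes are the members, their direct partners, list genes at an unadjusted p under 0.05 or at a list's extreme, the 5 genes most correlated with *Nos2*, *Duox2*, *Nox1* and *Lcn2*, and marker genes. *Il6*, *Il17a*, *Il22*, *Ifng*, *Slc10a2*, *Guca2b*, *Ccl25*, the genes listed at 0 and the genes overlapping members were chosen after their values were seen. A list gene that the rule would name is not reported here. Promoters came from RefSeq (GRCm38.p6), where 8 of 9 members matched, and transcripts from GENCODE for GRCm38, with shared sequence measured in 31-base words on either strand.

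Alternatives tried were TPM, a pseudocount of 0.1, no filter, a mean FPKM of at least 5, median centring, quantile normalization, array weights, no variance trend, a Y-linked score as covariate, leaving out each library, scaled coverage and QC3 as the sole PCdel library, the last pair added after seeing the data.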

Additional observations from a re-analysis of the deposited data

How the results depend on the processing

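No paired analysis was possible because no label ties a PCdel library to an ApcMin library. Of 14240 genes, 2 were called at an adjusted p under 0.05, against 1 with no filter and 1 with median centring, and from 1 (without QC3, QC5, QC8 or QC10) to 5 (without QC4) when a library was left out. At an unadjusted p under 0.05, 481 genes were found, against 976 with no filter, 260 at a mean FPKM of at least 5 and 1270 with array weights, and from 358 without QC8 to 820 without QC6. Of the pathway genes, 0 were called at an adjusted p under 0.05 by limma under every alternative run. The unadjusted count of 20 became 13 at a mean FPKM of at least 5 and 34 with array weights, and ran from 10 without QC3 and 13 without QC8 to 26 without QC10.

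The log2 difference of *Nos2* was 3.29 with a pseudocount of 0.1 and 1.30 with QC3 as the sole PCdel library, and from 1.97 to 2.77 when a library was left out. *Nox1* was 1.10 with a pseudocount of 0.1, and from 0.47 to 0.77 when a library was left out. Both stayed above 0 under every alternative run. As their groups did not overlap, leaving out a library, using QC3 alone or changing the pseudocount could not bring them below 0. The members were also selected on this difference, so nothing is read from its sign. With a library left out, *Saa1* ran from 0.81 to 3.37, *Saa2* from 0.04 to 0.70, *Duoxa2* from 0.0 to 0.43 and *Lcn2* from 0.12 to 0.58. *Saa2* was 1.48 with a pseudocount of 0.1. With QC3 as the sole PCdel library, *Saa1* was -0.04, *Duoxa2* -0.15, *Duox2* -0.19 and *Lcn2* -0.03. *Duox2* ran from -0.25 (without QC8) to 0.39, *Saa3* from -0.34 (without QC8) to 0.75, and *Noxo1* from -0.06 (without QC6) to 0.32, with -0.08 under array weights. The causes were not tested. Depth limits the low genes most, *Saa2*, *Nox1* and *Saa1* among them, since read numbers are unknown.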
